A study of Homo sapiens with 8 samples.

Results

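Solute carriers are membrane proteins that move amino acids, sugars, metals, nucleotides, organic acids and ions across the plasma membrane and the membranes of organelles, and their genes carry SLC symbols numbered by family. The genes described here are the rows of the deposited expression table whose symbol has the form SLC, a family number, the letter A and a member number, without SLC29A1, SLC29A2 and SLC7A11, and whose mean normalised value over the 8 libraries was 20 or more. In all, 194 genes of 47 families met this rule, out of 60240 genes in the table. Of the 335 symbols of that form, 141 lay below the mean of 20, among them 14 between 10 and 20 and 56 at 0 in every library. All 194 members passed the filter of the test (a mean of at least 10). Just inside the limit were SLC26A1, with a mean of 20.02, and SLC46A3, with 21.2, and just outside it SLC25A21, with 18.04, and SLC13A5, with 17.9.

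The libraries came from HL-60, an established human promyelocytic leukaemia cell line, wild type per the labels. Cells were grown for 72 h in 4 groups of 2 libraries each: decitabine with RG3039 (the combination), decitabine alone, RG3039 alone, and the solvent DMSO. Decitabine, a deoxycytidine analogue that traps DNA methyltransferases, was added 3 times at 100 nM, and RG3039, an inhibitor of the scavenger decapping enzyme DcpS, once at 2 µM. The wells were seeded in duplicate in 1 cell line, so that p-values measure the spread between these wells. The question of the design is how RNA levels differ between the 4 treatments.

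In growing leukaemia cells, plasma membrane carriers of the SLC2, SLC7, SLC38 and SLC16 families bring in glucose and amino acids and let lactate out. The SLC25 family carries metabolites through the inner mitochondrial membrane. SLC30 proteins move zinc out of the cytosol and SLC39 proteins move it in, while SLC11 and SLC40 proteins move iron and manganese. Mature phagocytes are known for SLC11A1, a carrier that removes metals from the phagosome, and for a high use of glucose.

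Each library held an estimated 20700000 to 40900000 reads, and the deposited scaling gave the same median level in each (1.011 of the gene's geometric mean). The summed values of the 194 members made up 0.5403% and 0.5208% of the signal with the combination, 0.5901% and 0.5525% with decitabine and 0.567% and 0.5459% with RG3039, against 0.5721% and 0.5356% in DMSO. All 8 promyelocyte markers were present in every library, and their sum was 138282 and 157678 with the combination, 202354 and 249965 with decitabine and 165555 and 187339 with RG3039, against 207769 and 255850.2 in DMSO. With the combination 6 of the 8 lay below both DMSO libraries and 1 above, with decitabine 2 below and 4 above, and with RG3039 5 below and 2 above. The share of all tested genes below both DMSO libraries was 30.6% with the combination, 23.1% with decitabine and 26.1% with RG3039. The peroxidase gene MPO, the highest of the 8, had 69218 and 74639 with the combination, 121481 and 158077 with decitabine and 80167 and 92757 with RG3039, against 130999.5 and 165579.5 in DMSO. The summed level of 10 markers of myeloid maturation was 159873 and 180891 with the combination, 96087 and 99521 with decitabine and 134564 and 129530.0 with RG3039, against 71665 and 81638 in DMSO. All 10 lay above both DMSO libraries with the combination, 9 with decitabine and 8 with RG3039, against 32.2%, 23.7% and 25.8% of all tested genes. With RG3039 1 of the 10, the integrin gene ITGAM, lay below both DMSO libraries. Of 7 markers of T, B and NK cells, MS4A1 was at 0 in every library, and the sum was 249.6 and 390.2 with the combination, 150.1 and 184 with decitabine and 34.9 and 108 with RG3039, against 46.9 and 30.2 in DMSO. Of 7 markers of stroma and epithelium, COL3A1 was at 0 in every library, and the sum was 3161 and 3556 with the combination, 657 and 884 with decitabine and 1687 and 1904 with RG3039, against 687 and 641 in DMSO, most of it PECAM1. PECAM1 had 3085 and 3460 with the combination, 565 and 821 with decitabine and 1633 and 1875 with RG3039, against 608 and 582 in DMSO. The highest value of any other marker of this list was 65.8, that of COL1A1 in DMSO replicate 1. The higher sums with the combination and RG3039 are therefore those of PECAM1 and not of the list. In bulk RNA, fewer cells of a kind and less RNA per cell cannot be told apart.

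The number of members called was largest for the combination against DMSO. Calls are adjusted p-values of limma under 0.05 across the 17534 genes tested. Numbers after a gene are log2 fold changes ± standard error of log2(normalised value + 1), a scale that shrinks the change of low genes, and a p given for a lost call is adjusted too and belongs to the fit without the named library (combination 1 is combination replicate 1). With the combination 27 members were higher and 29 lower, 28.9% of 194, against 24.1% of all genes tested (11.4% higher and 12.7% lower). The median log2 fold change was -0.09 over the members and 0.04 over all genes. With decitabine alone 8 members were higher and 0 lower, 4.12% of 194 against 2.14% of all genes tested (1.74% higher and 0.405% lower). An unadjusted p under 0.05 by limma was found there for 51 of the 194 members, against 3130 of the 17534 genes tested. With RG3039 alone 11 were higher and 9 lower, 10.3% of 194 against 8.12% of all genes tested (4.53% higher and 3.59% lower). Over the 7 comparisons made, 66 members (34%) were called at least once and 128 never, against 26.6% of all genes tested called at least once. The 66 included 5 with a mean under 20 in at least 1 group.

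Leaving out single libraries moved these counts. The count of 56 for the combination was 36 on dropping combination 1. For RG3039 the count of 20 was 9, 7, 9 and 8 on dropping RG3039 1, RG3039 2, DMSO 1 and DMSO 2. For decitabine the count of 8 was 3, 3, 1, 1, 5, 4 and 2 on dropping combination 1, combination 2, decitabine 1, decitabine 2, RG3039 1, RG3039 2 and DMSO 2. Of the single calls, 31 of 56 for the combination, 4 of 20 for RG3039 and 0 of 8 for decitabine held without each of the 8 libraries. All 3 comparisons share the DMSO libraries.

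**Figure D1:**
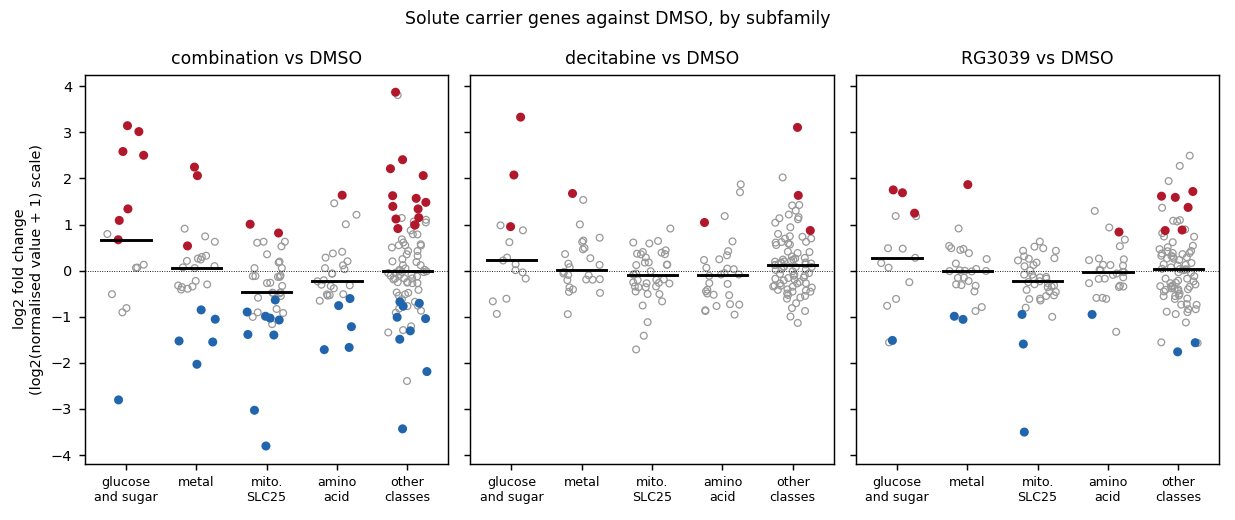
Log2 fold change of each of the 194 solute carrier genes against DMSO with the combination, decitabine and RG3039, by subfamily (points). Filled points were called at an adjusted p under 0.05 (red higher, blue lower), open points were not, and bars are medians. Of all genes tested, 11.4% were called higher and 12.7% lower with the combination. With the combination, 7 of 15 glucose and sugar genes were called higher and 9 of 39 mitochondrial SLC25 genes lower, and without combination 1 the SLC25 genes called in either direction numbered 5 instead of 11.

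The 8 members called higher with decitabine alone were SLC45A3, SLC2A8, SLC2A3, SLC11A1, SLC43A2, SLC20A1, SLC24A4 and SLC4A11. The last 2 are outside the rule for named genes and were chosen after their values were seen. Decitabine acts on methylation at CpG dinucleotides, so promoter windows of 4 of them are shown, with CG in capitals. The letters are RefSeq's on GRCh38.p14, 5′ to 3′ on the gene's strand, from at most 250 bases before the start that RefSeq gives the gene and without bases that an exon of the gene in GENCODE covers. The RefSeq start can differ from the GENCODE coordinates printed for genes here, and for SLC45A3 and SLC38A5 it lies further upstream. The windows lie at chr1:205680510-205680759 (minus strand, 19 CG in 250 bases), chr9:127396919-127397137 (plus strand, 18 in 219), chr14:92322331-92322580 (plus strand, 8 in 250) and chr2:112645689-112645856 (plus strand, 22 in 168).
SLC45A3: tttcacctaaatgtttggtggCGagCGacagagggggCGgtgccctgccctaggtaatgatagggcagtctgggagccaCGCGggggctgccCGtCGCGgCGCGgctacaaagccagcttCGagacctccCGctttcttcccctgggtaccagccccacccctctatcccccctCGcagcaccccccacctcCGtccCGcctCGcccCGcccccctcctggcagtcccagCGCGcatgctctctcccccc
SLC2A8: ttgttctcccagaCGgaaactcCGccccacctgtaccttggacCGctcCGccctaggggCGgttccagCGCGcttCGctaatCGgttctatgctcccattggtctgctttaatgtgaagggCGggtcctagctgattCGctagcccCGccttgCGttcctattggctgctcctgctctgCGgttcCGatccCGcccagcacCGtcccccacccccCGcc
SLC24A4: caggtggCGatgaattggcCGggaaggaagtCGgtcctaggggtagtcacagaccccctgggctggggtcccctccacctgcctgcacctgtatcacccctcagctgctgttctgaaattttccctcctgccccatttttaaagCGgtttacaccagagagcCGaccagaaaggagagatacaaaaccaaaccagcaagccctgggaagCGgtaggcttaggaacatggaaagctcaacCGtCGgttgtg
SLC20A1: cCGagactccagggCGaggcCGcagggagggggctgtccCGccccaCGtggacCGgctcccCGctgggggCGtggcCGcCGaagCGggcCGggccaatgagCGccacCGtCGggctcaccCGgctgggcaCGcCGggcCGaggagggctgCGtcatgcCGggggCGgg
Windows were found for 156 of the 194 members, with a median of 21 CG in the 250 bases before the start, against 20 over 11081 tested genes. The 6 of these 8 members with a window had 8 to 37 CG, with a median of 14.5. Those not shown, SLC11A1 and SLC43A2, had 9 and 10. SLC2A3 and SLC4A11 had no window. Methylation was not measured here, and the windows are a description.

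Glucose and sugar carriers held the largest share of called members of the 4 subfamilies. Of 15 members, 7 were higher and 1 lower with the combination (median 0.67), 3 higher and 0 lower with decitabine (median 0.22), and 3 higher and 1 lower with RG3039 (median 0.28). SLC37A2 and SLC5A3, outside the rule for named genes, were among those higher with the combination, and neither call held without each library. The share called was 53.3%, 20% and 26.7% of these members, against 24.1%, 2.14% and 8.12% of all genes tested. The summed value of the 15 members was 10615 and 10141 with the combination, 6046 and 6501 with decitabine and 7978 and 8069 with RG3039, against 5111 and 5275 in DMSO. Most of the difference between the combination and DMSO in this sum came from SLC2A3, whose values are given below. With decitabine the 3 called members were 1 and 1 on dropping decitabine 1 and decitabine 2.

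SLC2A3 encodes GLUT3, a high-affinity glucose transporter of the plasma membrane (chromosome 12, 7919230 to 7936275 on hg38). Its normalised value was 3817 and 3345 in the combination libraries, 1153 and 1294 with decitabine and 2195 and 1885 with RG3039, against 721 and 551 in DMSO. The 4 groups did not overlap, and both combination libraries stood above all others. SLC2A3 rose with the combination (2.50 ± 0.18, adjusted p = 4.98e-05) and with RG3039 (1.69 ± 0.18, adjusted p = 0.000985), and it was higher with the combination than with decitabine (1.55 ± 0.18, adjusted p = 0.00184). These 3 calls held without each library. The rise with decitabine alone (0.95 ± 0.18, adjusted p = 0.0322) ended at adjusted p of 0.053 to 0.159 on leaving out any 1 library other than DMSO replicate 1. The sum of the myeloid maturation markers given above, most of it LYZ, S100A8 and S100A9, ran in the same order over the 4 groups. Single markers did not all do so. The means of CEBPE (5204 with decitabine, 4611 with RG3039), FCGR2A (689 and 482) and ITGAM (191 and 63) were higher with decitabine than with RG3039. Those of the other markers ran in the order of SLC2A3. With RG3039, 8 of the 10 lay above both DMSO libraries, and ITGAM lay below both (57.3 and 68.7, against 85.8 and 108). The part of these markers in the change of SLC2A3 was not tested. Reads shared with the near-identical SLC2A14 leave its level uncertain. SLC2A1, which encodes GLUT1, the main glucose transporter of many dividing cells, was not called. Its values were 341 and 230.0 in the combination libraries, 322 and 299 with decitabine and 317 and 265 with RG3039, against 630.4 and 385 in DMSO, so all 6 treated libraries lay below both DMSO libraries (combination against DMSO -0.81 ± 0.29, adjusted p = 0.0743).

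SLC2A8 and SLC2A6 encode GLUT8 and GLUT6, glucose transporters that sit mainly on membranes inside the cell. SLC2A8 (chromosome 9, 127397138 to 127408424) had 1136 and 1201 in the combination libraries, 535 and 690.4 with decitabine and 516 and 457 with RG3039, against 114 and 180.1 in DMSO. Every treated library lay above both DMSO libraries, and the combination lay above both single drugs. SLC2A8 rose with the combination (3.02 ± 0.25, adjusted p = 8.88e-05), with RG3039 (1.75 ± 0.25, adjusted p = 0.00336) and with decitabine (2.07 ± 0.25, adjusted p = 0.00361). The decitabine call was lost at adjusted p of 0.0524 on dropping decitabine 2, and the other 2 held without each library. SLC2A6 had 282 and 338 in the combination libraries, 83.1 and 123 with decitabine and 101 and 133 with RG3039, against 66.3 and 38.7 in DMSO. It rose with the combination (2.58 ± 0.37, adjusted p = 0.00119), a call that held without each library, and was not called with decitabine (0.98 ± 0.37) or RG3039 (1.18 ± 0.37).

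SLC45A3 and SLC45A4 belong to a family of proton-coupled sugar carriers, and each followed 1 of the drugs. SLC45A3, known as the prostate gene prostein (chromosome 1, 205657851 to 205680459), had 181 and 149.5 in the combination libraries, 205 and 171 with decitabine and 22.8 and 15.1 with RG3039, against 17.4 and 18.1 in DMSO. Libraries with decitabine stood apart from those without it, and the RG3039 and DMSO libraries overlapped. It rose with the combination (3.14 ± 0.40, adjusted p = 0.00066) and with decitabine (3.33 ± 0.40, adjusted p = 0.00324), and decitabine exceeded RG3039 (3.27 ± 0.40, adjusted p = 0.00242). The decitabine call was lost at adjusted p of 0.0546 on dropping decitabine 1. With RG3039 the difference from DMSO was 0.06 ± 0.40. SLC45A4 had 1055 and 1047 in the combination libraries, 532 and 463 with decitabine and 1091 and 1257 with RG3039, against 454 and 536 in DMSO. Libraries with RG3039 lay above those without it. SLC45A4 rose with the combination (1.09 ± 0.18, adjusted p = 0.0026) and with RG3039 (1.25 ± 0.18, adjusted p = 0.00364), both held without each library, and the difference with decitabine was 0.01 ± 0.18.

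SLC2A5, which encodes the fructose transporter GLUT5 (chromosome 1, 9035107 to 9088478), was the glucose and sugar member that fell. Its values were 44.1 and 67 in the combination libraries, 202 and 199 with decitabine and 171 and 106 with RG3039, against 329.9 and 451 in DMSO. The combination libraries were the lowest of the 8 and the DMSO libraries the highest. It fell with the combination (-2.80 ± 0.34, adjusted p = 0.000551), which held without each library, and with RG3039 (-1.51 ± 0.34, adjusted p = 0.0271), which was lost at adjusted p of 0.165 and 0.161 on dropping RG3039 2 and DMSO 2. The decitabine difference of -0.94 ± 0.34 was not called (adjusted p = 0.193).

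**Figure D2:**
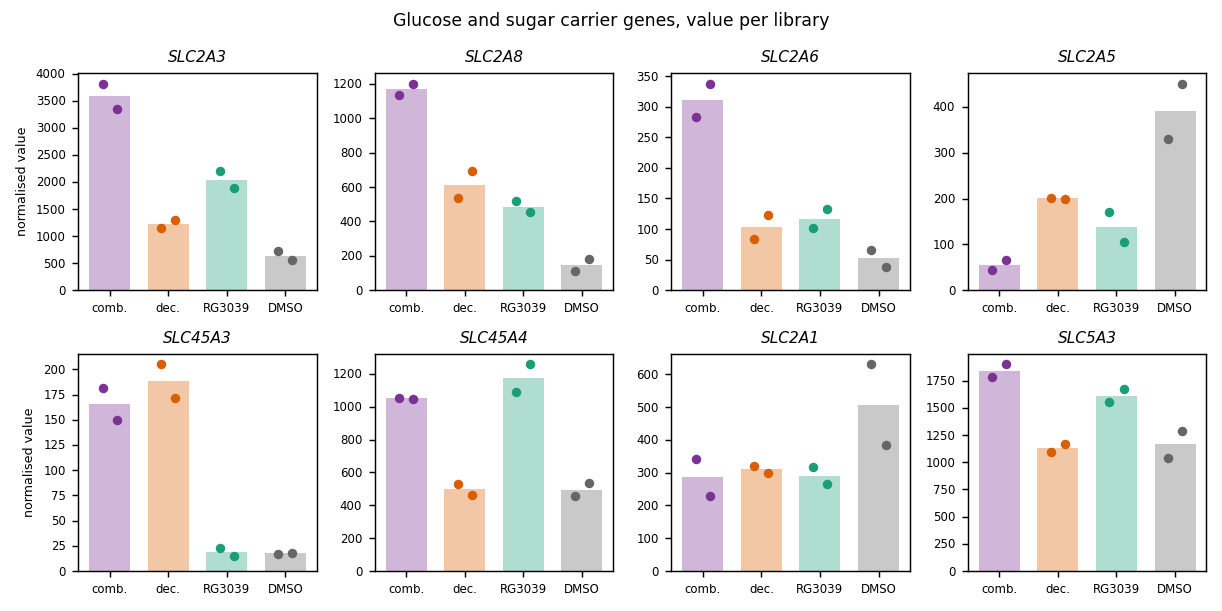
Normalised value per library (points) and group mean (bars) of 8 glucose and sugar carrier genes, for the combination (comb.), decitabine (dec.), RG3039 and DMSO. SLC2A3, SLC2A8 and SLC2A6 were highest with the combination, SLC45A3 followed decitabine, SLC45A4 followed RG3039, and SLC2A5 was lowest with the combination.

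Enzymes and regulators downstream of glucose entry were counted apart. Of 18 genes of glucose use and glycolysis tested, 1 was higher and 6 lower with the combination (median -0.62), 0 higher and 0 lower with decitabine (median -0.17), and 0 higher and 1 lower with RG3039 (median -0.14). The called shares of all genes tested were 24.1%, 2.14% and 8.12% in these comparisons. HK1, a hexokinase gene, was the one that rose with the combination (1.68 ± 0.29, adjusted p = 0.00302), and PGK1, which encodes phosphoglycerate kinase, fell (-1.12 ± 0.18, adjusted p = 0.00218). Both calls held without each library. TXNIP encodes a protein that drives GLUT1 from the cell surface, and had 6355 and 6224 in the combination libraries, 9931 and 9131 with decitabine and 6191 and 4870.4 with RG3039, against 9869 and 8790.5 in DMSO. It fell with the combination (-0.57 ± 0.15, adjusted p = 0.0224; lost at adjusted p of 0.104, 0.109 and 0.0917 on dropping combination 1, combination 2 and DMSO 1) and with RG3039 (-0.76 ± 0.15, adjusted p = 0.0149; lost at adjusted p of 0.123 and 0.0584 on dropping RG3039 2 and DMSO 1). With decitabine the difference was 0.03 ± 0.15.

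Metal carriers moved in both directions. Of 26 members, 3 were higher and 5 lower with the combination (median 0.06), 1 higher and 0 lower with decitabine (median 0.02), and 1 higher and 2 lower with RG3039 (median -0.01). Of all genes tested, 24.1%, 2.14% and 8.12% were called in these comparisons, against 30.8%, 3.85% and 11.5% of the metal members. With the combination 11.4% of all genes were higher and 12.7% lower, against 11.5% and 19.2% of the metal members. Their summed value was 17865 and 18123 with the combination, 19833 and 20512 with decitabine and 18671 and 18585 with RG3039, against 19814 and 20656 in DMSO. With the combination the 8 called members were 5, 5 and 5 on dropping combination 1, combination 2 and DMSO 1, and with RG3039 the 3 called members were 1, 1 and 1 on dropping RG3039 1, RG3039 2 and DMSO 1.

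SLC11A1 encodes NRAMP1, the metal exporter of the phagosome membrane in macrophages and neutrophils (chromosome 2, 218382029 to 218396894 on hg38). It had 325 and 298 in the combination libraries, 177 and 253 with decitabine and 133 and 114 with RG3039, against 72.8 and 57.5 in DMSO. Each treated group lay above DMSO, and the combination above both single drugs. The rise with the combination (2.25 ± 0.30, adjusted p = 0.000817) held without each library, and that with decitabine (1.69 ± 0.30, adjusted p = 0.0236) was lost at adjusted p of 0.0564, 0.0591, 0.0651, 0.139 and 0.116 on dropping combination 1, combination 2, decitabine 1, decitabine 2 and DMSO 2. With RG3039 the difference of 0.91 ± 0.30 was not called (adjusted p = 0.0975). The sum of the maturation markers was above DMSO in each treated group too, but between the single drugs it ran the other way, higher with RG3039 than with decitabine. Most of that sum came from LYZ, S100A8 and S100A9. The means of CEBPE (5204 with decitabine, 4611 with RG3039), FCGR2A (689 and 482) and ITGAM (191 and 63) were higher with decitabine. Those of the other maturation markers were higher with RG3039. The part of these markers in the change of SLC11A1 was not tested. SLC40A1, which encodes ferroportin, the known cellular iron exporter, had 164 and 206 in the combination libraries, 222 and 72.7 with decitabine and 184 and 139 with RG3039, against 35.2 and 53.2 in DMSO. All treated libraries exceeded both DMSO libraries, but the decitabine libraries differed widely from each other. SLC40A1 rose with the combination (2.06 ± 0.50, adjusted p = 0.0149; lost at adjusted p of 0.0563, 0.0861 and 0.0749 on dropping combination 1, combination 2 and DMSO 1) and with RG3039 (1.86 ± 0.50, adjusted p = 0.04998; ended at adjusted p of 0.0772 to 0.214 on leaving out any 1 library other than decitabine replicate 1 and decitabine replicate 2).

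SLC39A14 and SLC39A8 encode ZIP14 and ZIP8, which import zinc, iron and manganese. SLC39A14 had 61.2 and 57.2 in the combination libraries, 173 and 92.9 with decitabine and 151 and 132 with RG3039, against 250.2 and 239 in DMSO. SLC39A8 (chromosome 4, 102251041 to 102431258) had 401 and 463 in the combination libraries, 1035 and 814 with decitabine and 863 and 547 with RG3039, against 1245 and 1280.3 in DMSO. In both genes the combination libraries were the lowest of the 8 and the DMSO libraries the highest. Both genes fell with the combination, SLC39A14 (-2.03 ± 0.34, adjusted p = 0.00273) and SLC39A8 (-1.55 ± 0.24, adjusted p = 0.00178). Both calls held without each library, and neither gene was called with decitabine or RG3039 alone.

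SLC30A9 encodes a zinc carrier of mitochondria (ZNT9), and SLC41A3 belongs to the magnesium carrier family. SLC30A9 had 694 and 699.8 in the combination libraries, 1019 and 1243 with decitabine and 684 and 776 with RG3039, against 1426 and 1469 in DMSO. Libraries with RG3039 lay below the others. It fell with the combination (-1.05 ± 0.17, adjusted p = 0.00228), which held without each library, and with RG3039 (-0.99 ± 0.17, adjusted p = 0.00834), which was lost at adjusted p of 0.069 on dropping RG3039 1. SLC41A3 had 322 and 231 in the combination libraries, 733 and 651 with decitabine and 422 and 338 with RG3039, against 924 and 669 in DMSO. Its RG3039 and combination libraries were again the 4 lowest. The fall with the combination (-1.53 ± 0.25, adjusted p = 0.00232) held without each library, and that with RG3039 (-1.06 ± 0.25, adjusted p = 0.0316) was lost at adjusted p of 0.0507, 0.0816, 0.178 and 0.132 on dropping decitabine 2, RG3039 1, RG3039 2 and DMSO 1. The zinc importer genes SLC39A10 (0.54 ± 0.16, adjusted p = 0.0341; was lost at adjusted p of 0.177, 0.104, 0.0504, 0.0512, 0.0556 and 0.126 on dropping combination 1, combination 2, RG3039 1, RG3039 2, DMSO 1 and DMSO 2) and SLC39A4 (-0.85 ± 0.24, adjusted p = 0.0275; was lost at adjusted p of 0.0715, 0.143, 0.0862 and 0.0899 on dropping combination 1, combination 2, DMSO 1 and DMSO 2), both outside the rule for named genes, were the other metal members called with the combination. The iron importer gene SLC11A2 (DMT1) and the zinc exporter gene SLC30A1 (ZNT1) were called in no comparison. SLC11A2 gave -0.36 ± 0.28, 0.36 ± 0.28 and -0.33 ± 0.28 with the combination, decitabine and RG3039 against DMSO, and SLC30A1 gave -0.34 ± 0.31, -0.48 ± 0.31 and -0.30 ± 0.31.

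**Figure D3:**
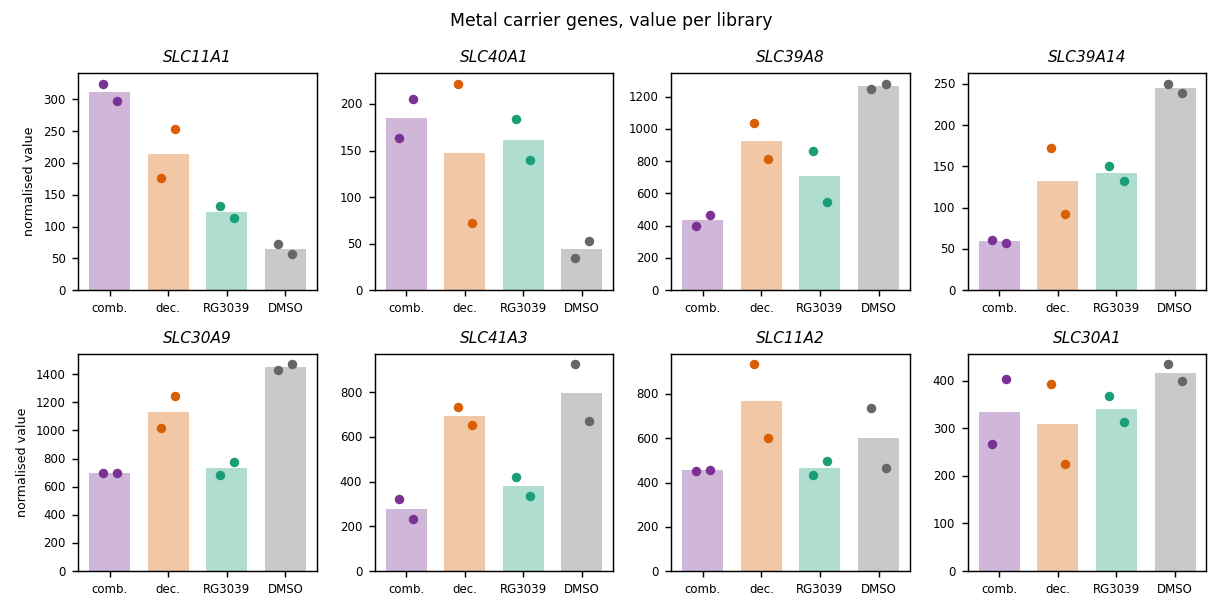
Normalised value per library (points) and group mean (bars) of 8 metal carrier genes, for the combination (comb.), decitabine (dec.), RG3039 and DMSO. SLC11A1 was highest and SLC39A8 and SLC39A14 were lowest with the combination, and SLC30A9 and SLC41A3 were low in the 4 libraries with RG3039.

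Of 15 genes of metal handling outside the SLC families, 4 were higher and 2 lower with the combination (median 0.33), 1 higher and 0 lower with decitabine (median -0.02), and 4 higher and 1 lower with RG3039 (median 0.39). Over all genes tested, the shares called were 24.1%, 2.14% and 8.12%. FTH1, which encodes the ferritin heavy chain that stores iron, had 23786 and 22009 in the combination libraries, 10786 and 12441 with decitabine and 14436 and 12956 with RG3039, against 8208 and 6437 in DMSO. It rose with the combination (1.65 ± 0.15, adjusted p = 0.000158), which held without each library, and with RG3039 (0.91 ± 0.15, adjusted p = 0.00758; lost at adjusted p of 0.0701 on dropping RG3039 1). MTF1 encodes the zinc-sensing transcription factor that is known to act on SLC30A1, and had 2941 and 3216 in the combination libraries, 1196 and 1259 with decitabine and 2757 and 2939.8 with RG3039, against 1286 and 1059.6 in DMSO. Both groups with RG3039 stood apart from both groups without it, and MTF1 rose with the combination (1.40 ± 0.15, adjusted p = 0.000328) and with RG3039 (1.29 ± 0.15, adjusted p = 0.00144). HMOX1, the haem oxygenase gene, had 97.4 and 119 in the combination libraries, 29.7 and 34.3 with decitabine and 21.5 and 25.5 with RG3039, against 3.03 and 1.51 in DMSO, and rose with the combination (5.09 ± 0.57, adjusted p = 0.000351). Its rises with decitabine (3.37 ± 0.57, adjusted p = 0.0199; lost at adjusted p of 0.0582, 0.0611, 0.101, 0.124 and 0.0801 on dropping combination 1, combination 2, decitabine 1, decitabine 2 and DMSO 2) and RG3039 (2.94 ± 0.57, adjusted p = 0.0143; lost at adjusted p of 0.0652, 0.0846 and 0.0604 on dropping RG3039 1, RG3039 2 and DMSO 2) were less stable. TFRC, the transferrin receptor gene, was not called (combination 0.00 ± 0.14, decitabine -0.02 ± 0.14, RG3039 0.28 ± 0.14 against DMSO).

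Mitochondrial carriers of the SLC25 family were mostly lower with the combination among the members called. Of 39 members, 2 were higher and 9 lower with the combination (median -0.47), 0 higher and 0 lower with decitabine (median -0.09), and 0 higher and 3 lower with RG3039 (median -0.23). With decitabine 10 of the 39 had an unadjusted p under 0.05 by limma, against 3130 of the 17534 genes tested. The share called with the combination was 28.2% (23.1% lower), against 24.1% of all genes tested (12.7% lower). It was 0% with decitabine, against 2.14%, and 7.69% with RG3039, against 8.12%. The medians over all tested genes in these comparisons were 0.04, 0.01 and 0.00. The summed value of the 39 members was 47471 and 47765 with the combination, 60793 and 56199 with decitabine and 57358 and 51278 with RG3039, against 65422 and 57519 in DMSO. Most of the difference between the combination and DMSO in this sum came from SLC25A3 and SLC25A5, whose values are given below. With the combination the 11 called members were 5 and 7 on dropping combination 1 and combination 2, and with RG3039 the 3 called members were 0, 1, 0 and 0 on dropping RG3039 1, RG3039 2, DMSO 1 and DMSO 2.

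SLC25A22 encodes a glutamate carrier of the inner mitochondrial membrane (chromosome 11, 790475 to 798333 on hg38). It had 27.5 and 28.1 in the combination libraries, 82.2 and 92.5 with decitabine and 87.3 and 67.6 with RG3039, against 208 and 263 in DMSO. The combination libraries lay below, and the DMSO libraries above, those of either single drug. SLC25A22 fell with the combination (-3.03 ± 0.34, adjusted p = 0.000354), which held without each library, and with RG3039 (-1.59 ± 0.34, adjusted p = 0.0216), which was lost at adjusted p of 0.0689, 0.129, 0.0534 and 0.139 on dropping RG3039 1, RG3039 2, DMSO 1 and DMSO 2. SLC25A43, a carrier without a settled substrate (chromosome X, 119399060 to 119454478), had 6.66 and 6.32 in the combination libraries, 70.1 and 94.6 with decitabine and 4.03 and 15.9 with RG3039, against 103 and 104 in DMSO. The 4 libraries with RG3039 were low and the 4 without it high. Its fall with the combination (-3.80 ± 0.65, adjusted p = 0.00285) held without each library, and that with RG3039 (-3.50 ± 0.65, adjusted p = 0.0112) was lost at adjusted p of 0.0549, 0.0511 and 0.0712 on dropping RG3039 1, DMSO 1 and DMSO 2. With decitabine the difference was -0.34 ± 0.65.

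Phosphate and adenine nucleotide carriers, which feed ATP synthesis, did not move as one. SLC25A3, the phosphate carrier gene (chromosome 12, 98593591 to 98606379), had 5350.4 and 5641 in the combination libraries, 7785 and 7541 with decitabine and 9743 and 7829 with RG3039, against 11619 and 10241 in DMSO. The combination libraries were the 2 lowest. SLC25A3 fell with the combination (-0.99 ± 0.15, adjusted p = 0.00136), which held without each library, and was lower with the combination than with RG3039 (-0.67 ± 0.15, adjusted p = 0.0495; ended at adjusted p of 0.0622 to 0.328 on leaving out any 1 library other than DMSO replicate 1 and DMSO replicate 2). The ADP/ATP carrier gene SLC25A5 (ANT2), which begins 13922 bases after the end of SLC25A43 on chromosome X, had 2093 and 2728 in the combination libraries, 6316 and 3744 with decitabine and 5895 and 3479 with RG3039, against 6523 and 5972 in DMSO. Libraries of the same single drug differed widely. SLC25A5 fell with the combination (-1.38 ± 0.29, adjusted p = 0.00785; lost at adjusted p of 0.0644 on dropping combination 1). SLC25A6 (ANT3), its close paralog, had 14812 and 14448 in the combination libraries, 13590.0 and 17323 with decitabine and 10876 and 12432 with RG3039, against 14205 and 13922 in DMSO and was called in no comparison (combination over DMSO 0.06 ± 0.15, adjusted p = 0.822). Reads shared between the paralogs make both levels uncertain.

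SLC25A23 and SLC25A24 encode calcium-regulated ATP-Mg/phosphate carriers. SLC25A23 had 896 and 1099 in the combination libraries, 596 and 630.0 with decitabine and 792 and 961 with RG3039, against 562 and 564 in DMSO and rose with the combination (0.82 ± 0.19, adjusted p = 0.0117; lost at adjusted p of 0.0962 on dropping combination 2). SLC25A24 had 519 and 429 in the combination libraries, 621 and 569.8 with decitabine and 293 and 285 with RG3039, against 445 and 463 in DMSO. It was higher with decitabine than with RG3039 (1.04 ± 0.20, adjusted p = 0.0178; ended at adjusted p of 0.0754 to 0.103 on leaving out any 1 library other than combination replicate 1, combination replicate 2, DMSO replicate 1 and DMSO replicate 2), and its difference from DMSO was 0.05 ± 0.20 with the combination. Further members called with the combination, outside the rule for named genes, were SLC25A25, a further ATP-Mg/phosphate carrier gene, which rose, and SLC25A17, SLC25A32, SLC25A36 and SLC25A46, which fell. None of these 5 calls held without each library: SLC25A25 was lost at adjusted p of 0.106, 0.0607 and 0.0794 on dropping combination 1, combination 2 and DMSO 1, SLC25A32 at 0.0906, 0.0514 and 0.0785 on dropping combination 1, combination 2 and DMSO 2, SLC25A36 at 0.0842 on dropping combination 1, SLC25A46 at 0.0574 and 0.0548 on dropping combination 1 and combination 2, and SLC25A17 at adjusted p of 0.0536 to 0.254 on leaving out any 1 library other than RG3039 replicate 1 and RG3039 replicate 2. Of these, SLC25A17 is known as a peroxisomal carrier and SLC25A46 as an outer membrane protein.

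**Figure D4:**
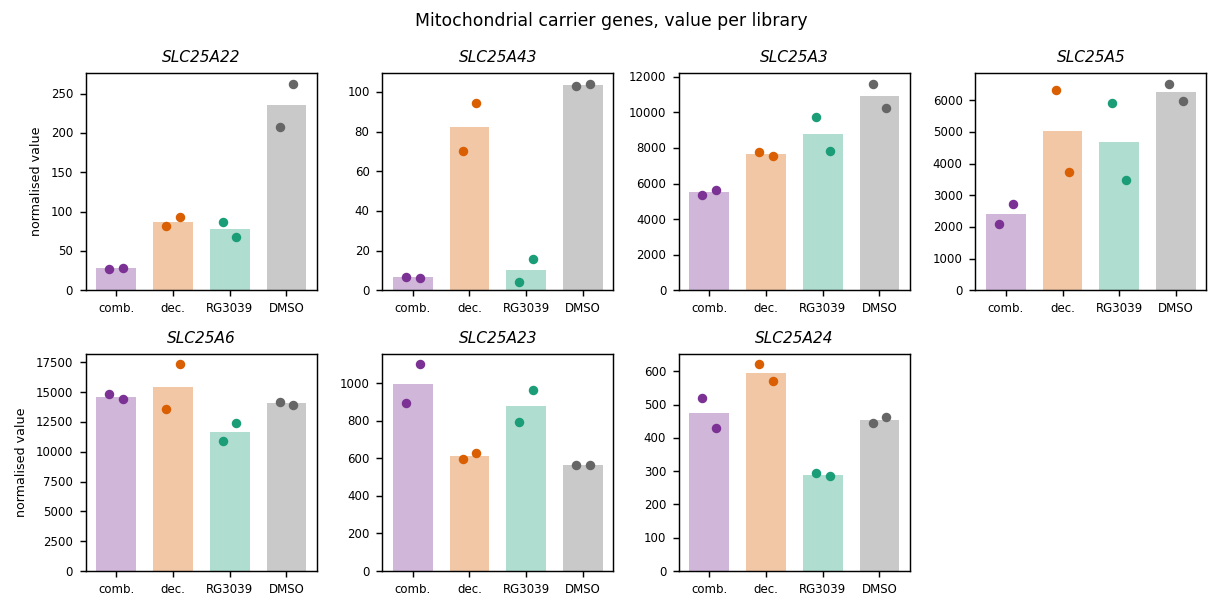
Normalised value per library (points) and group mean (bars) of 7 SLC25 genes, for the combination (comb.), decitabine (dec.), RG3039 and DMSO. SLC25A22 and SLC25A3 were lowest with the combination, SLC25A43 was low in the 4 libraries with RG3039, and the 2 combination libraries of SLC25A6 lay just above those of DMSO.

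The letters CACGTG, the E-box bound by MYC and MiT family factors, were searched in the promoter windows because carrier genes of growth and of lysosomes are known targets of those factors. They read the same on both strands and occurred in 8.89% of 11081 windows of tested genes, in 17 of 156 windows of members (10.9%), and in 6 of 33 SLC25 windows (18.2%). Windows were found for 21 of the 29 members called lower with the combination and 20 of the 27 called higher. Of these, 3 of the 21 held the letters (14.3%) and 1 of the 20 (5%), beside 8.89% of all windows. Counts this small do not separate the directions. Of the 3 genes called lower, only SLC38A5 held its call without each library. The 3 windows are shown with CACGTG in capitals, at chrX:48470261-48470510 (minus strand), chr5:110738757-110738993 (plus strand) and chr3:140941586-140941829 (plus strand). The SLC25A46 window lies downstream of the gene's first GENCODE start and outside its exons.
SLC38A5: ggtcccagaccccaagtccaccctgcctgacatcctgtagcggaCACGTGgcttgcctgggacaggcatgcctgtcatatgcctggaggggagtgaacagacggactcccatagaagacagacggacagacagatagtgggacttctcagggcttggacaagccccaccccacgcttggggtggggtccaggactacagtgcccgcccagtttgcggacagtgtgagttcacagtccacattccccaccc
SLC25A46: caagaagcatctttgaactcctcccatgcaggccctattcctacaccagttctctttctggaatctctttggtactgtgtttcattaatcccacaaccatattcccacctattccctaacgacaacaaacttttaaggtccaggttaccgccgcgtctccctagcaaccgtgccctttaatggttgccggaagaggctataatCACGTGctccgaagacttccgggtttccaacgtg
SLC25A36: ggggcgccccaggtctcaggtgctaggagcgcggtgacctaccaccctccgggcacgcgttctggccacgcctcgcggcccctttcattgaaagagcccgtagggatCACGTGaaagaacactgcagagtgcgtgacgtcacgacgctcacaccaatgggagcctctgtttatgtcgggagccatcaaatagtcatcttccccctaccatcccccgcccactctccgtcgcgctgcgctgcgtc
The amino acid response letters TTGCATCA, searched like the next motif on both strands, occurred in 1 of 156 member windows (0.641%) and 0.442% of all, and the metal response letters TGCACNC in 13 (8.33%) and 9.42%. Matches of different motifs may share bases, and a match is a description of these letters and not a site.

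Mitochondrial carriers and channels without an SLC symbol were counted in the same way. Of 16 genes tested, 0 were higher and 6 lower with the combination (median -0.42), 0 and 0 with decitabine (median -0.37), and 0 and 1 with RG3039 (median -0.16). Among all genes tested 24.1%, 2.14% and 8.12% were called in these comparisons. The outer membrane channel genes VDAC2 (-0.79 ± 0.15, adjusted p = 0.00446) and VDAC3 (-0.82 ± 0.16, adjusted p = 0.00598) fell with the combination, and both calls held without each library. SFXN2, a serine carrier family gene, gave -1.03 ± 0.28, adjusted p = 0.0261 (it was lost at adjusted p of 0.108, 0.0993 and 0.136 on dropping combination 1, combination 2 and DMSO 2) with the combination. UCP2, an uncoupling protein gene of the SLC25 fold, was not called (combination -0.30 ± 0.19, decitabine -0.44 ± 0.19, RG3039 -0.54 ± 0.19 against DMSO).

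Amino acid carriers were called at a share near that of all genes with the combination. Of 29 members, 1 was higher and 5 lower (20.7%, against 24.1%, with a median of -0.23). With decitabine 1 was higher and 0 lower (3.45%, against 2.14%, with a median of -0.08). With RG3039 1 was higher and 1 lower (6.9%, against 8.12%, with a median of -0.03). Their summed value was 25843 and 23859 with the combination, 25928 and 28458 with decitabine and 28880.0 and 29308 with RG3039, against 30107 and 33824 in DMSO. With the combination the 6 called members were 3 and 3 on dropping combination 2 and DMSO 2.

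Carriers of arginine and glutamine were among those that fell. SLC7A1 encodes the arginine and lysine importer CAT1 (chromosome 13, 29509410 to 29595688 on hg38) and had 1661 and 1989 in the combination libraries, 2452 and 2512 with decitabine and 2981 and 2639 with RG3039, against 3475 and 5135 in DMSO. SLC38A5, whose protein SNAT5 carries glutamine, had 825 and 901 in the combination libraries, 1141 and 1867 with decitabine and 1667 and 2057 with RG3039, against 2100.5 and 3815 in DMSO. For both genes the combination libraries lay lowest. With the combination SLC7A1 (-1.22 ± 0.20, adjusted p = 0.00218) and SLC38A5 (-1.71 ± 0.30, adjusted p = 0.00334) fell, and both calls held without each library. SLC7A2, which encodes the related arginine carrier CAT2, had 44.9 and 29.5 in the combination libraries, 63.4 and 65.5 with decitabine and 72.5 and 83.5 with RG3039, against 108 and 128 in DMSO. Its fall with the combination (-1.67 ± 0.37, adjusted p = 0.0108) was lost at adjusted p of 0.0729 and 0.0677 on dropping combination 2 and DMSO 2. SLC1A5, the glutamine transporter gene ASCT2, was lower with the combination (-0.61 ± 0.19, adjusted p = 0.0434), which ended at adjusted p of 0.0659 to 0.266 on leaving out any 1 library other than combination replicate 1, decitabine replicate 1 and decitabine replicate 2. SLC7A6, an arginine and leucine exchanger gene outside the rule for named genes, was the fifth (-0.76 ± 0.20, adjusted p = 0.0212; lost at adjusted p of 0.14, 0.053 and 0.125 on dropping combination 1, combination 2 and DMSO 2).

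SLC43A2, which encodes the neutral amino acid carrier LAT4 (chromosome 17, 1569267 to 1628886), was the amino acid member that rose. It had 1090.3 and 1038 in the combination libraries, 772 and 647 with decitabine and 521 and 717 with RG3039, against 382 and 306 in DMSO. Every treated library lay above both DMSO libraries. The rise with the combination (1.64 ± 0.22, adjusted p = 0.000878) held without each library. The rises with decitabine (1.05 ± 0.22, adjusted p = 0.045; ended at adjusted p of 0.052 to 0.205 on leaving out any 1 library other than RG3039 replicate 1 and DMSO replicate 1) and with RG3039 (0.84 ± 0.22, adjusted p = 0.0473; ended at adjusted p of 0.0564 to 0.265 on leaving out any 1 library) did not. SLC38A10, a family member of glutamine carriers, had 1374 and 1343 in the combination libraries, 2162 and 2838 with decitabine and 932 and 1110.1 with RG3039, against 1873 and 2064 in DMSO. The decitabine libraries were the highest and the RG3039 libraries the lowest. It fell with RG3039 (-0.95 ± 0.18, adjusted p = 0.0118; lost at adjusted p of 0.094 and 0.0687 on dropping RG3039 1 and DMSO 2) and was higher with decitabine than with RG3039 (1.28 ± 0.18, adjusted p = 0.00443), which held without each library.

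The paired subunits of the leucine importer LAT1, SLC7A5 and its chaperone SLC3A2, were called in no comparison. SLC7A5 had 1350.4 and 1339 in the combination libraries, 1472 and 1339 with decitabine and 1851 and 1839 with RG3039, against 1760.0 and 1634 in DMSO. SLC3A2 had 2098 and 1645 in the combination libraries, 1429 and 1503 with decitabine and 2203 and 1832 with RG3039, against 2137 and 2754 in DMSO. For SLC7A5 the combination and decitabine libraries lay below DMSO, and for SLC3A2 one DMSO library lay inside the range of the treated libraries and the other above it. Against DMSO SLC7A5 gave -0.33 ± 0.14, -0.27 ± 0.14 and 0.12 ± 0.14 with the combination, decitabine and RG3039, and SLC3A2 gave -0.38 ± 0.19, -0.73 ± 0.19 and -0.27 ± 0.19. SLC38A2, a glutamine carrier gene induced by amino acid shortage, gave 0.03 ± 0.13, 0.23 ± 0.13 and 0.13 ± 0.13. The lysosomal arginine and lysine exporter gene SLC66A1 was not called (combination -0.07 ± 0.28, decitabine -0.88 ± 0.28, RG3039 0.23 ± 0.28).

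Of 18 genes of amino acid sensing and use, 4 were higher and 2 lower with the combination (median 0.02), 0 and 0 with decitabine (median -0.07), and 2 and 0 with RG3039 (median 0.13). In the same comparisons 24.1%, 2.14% and 8.12% of all genes tested were called. ASNS, the asparagine synthetase gene, had 2077 and 2159 in the combination libraries, 1787 and 1956 with decitabine and 2499.8 and 2769.8 with RG3039, against 1395 and 1101 in DMSO. It rose with RG3039 (1.09 ± 0.16, adjusted p = 0.00413), which held without each library, and with the combination (0.77 ± 0.16, adjusted p = 0.00812; lost at adjusted p of 0.0558 on dropping combination 2). SESN2, which encodes a leucine sensor, rose with the combination (0.88 ± 0.19, adjusted p = 0.00858; lost at adjusted p of 0.0724 on dropping combination 1) and with RG3039 (0.76 ± 0.19, adjusted p = 0.0388; ended at adjusted p of 0.0514 to 0.173 on leaving out any 1 library). The arginine sensor gene CASTOR1 had 60.1 and 74.7 in the combination libraries, 23 and 22.9 with decitabine and 12.1 and 9.58 with RG3039, against 8.35 and 9.09 in DMSO, and rose with the combination (2.81 ± 0.57, adjusted p = 0.0071; lost at adjusted p of 0.0609 on dropping combination 2).

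The other 85 members fell into 21 smaller classes. With the combination 14 of them were higher and 9 lower (median -0.02), with decitabine 3 and 0 (median 0.12), and with RG3039 6 and 2 (median 0.03). These calls were 27.1%, 3.53% and 9.41% of the 85, against 24.1%, 2.14% and 8.12% of all genes tested. With the combination the 23 called members were 15 on dropping combination 1, and with RG3039 the 8 called members were 5, 5, 4, 1, 2 and 3 on dropping combination 1, combination 2, RG3039 1, RG3039 2, DMSO 1 and DMSO 2. Cation exchangers and cation-chloride carriers had 8 of 14 members called in at least 1 comparison (57.1%) and anion exchangers 4 of 6 (66.7%), against 26.6% of all genes tested, while the choline, folate and thiamine, and taurine and creatine classes had none. The plot of called members by library shows their levels.

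SLC17A9 encodes the vesicular nucleotide transporter that loads ATP into granules (chromosome 20, 62952647 to 62969585 on hg38). It had 412 and 447 in the combination libraries, 1487 and 1301 with decitabine and 726 and 606 with RG3039, against 1936 and 1986 in DMSO. The groups did not overlap, with the combination lowest and DMSO highest. SLC17A9 fell with the combination (-2.19 ± 0.17, adjusted p = 6.72e-05) and with RG3039 (-1.56 ± 0.17, adjusted p = 0.00105), and the combination lay below decitabine (-1.69 ± 0.17, adjusted p = 0.00128). All 3 calls held without each library. With decitabine the difference was -0.50 ± 0.17 (adjusted p = 0.171).

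Lactate carriers differed from each other. SLC16A1 encodes MCT1, is overlapped at its 5′ end by an antisense gene, and had 2771 and 2588 in the combination libraries, 3911 and 4123 with decitabine and 4468 and 4261 with RG3039, against 5758 and 5274 in DMSO. All treated libraries lay below both DMSO libraries, and the combination lowest. SLC16A1 fell with the combination (-1.04 ± 0.13, adjusted p = 0.000623), which held without each library. SLC16A3, which encodes MCT4, the lactate exporter of glycolytic cells, had 5983 and 6098 in the combination libraries, 2998 and 5066 with decitabine and 6412 and 7417 with RG3039, against 3665 and 4679 in DMSO and was called in no comparison (combination 0.54 ± 0.23, RG3039 0.74 ± 0.23 against DMSO). BSG, the chaperone of both carriers, was not called (combination -0.20 ± 0.16). Of 8 tested genes for partner subunits and chaperones, 0 were higher and 2 lower with the combination (median 0.01), 0 and 0 with decitabine (median 0.06), and 0 and 2 with RG3039 (median -0.21). All genes tested were called at 24.1%, 2.14% and 8.12% in these comparisons. The sodium pump subunit gene ATP1B3 fell with the combination (-0.83 ± 0.15, adjusted p = 0.00371; held without each library). The surface glycoprotein gene CD44 gave -0.95 ± 0.19, adjusted p = 0.0176 (it was lost at adjusted p of 0.123 and 0.0753 on dropping RG3039 1 and DMSO 1) with RG3039.

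Fatty acid carriers SLC27A2 (FATP2) and SLC27A3 (FATP3) were higher with the combination. SLC27A2 had 1611 and 1531 in the combination libraries, 1174 and 1231 with decitabine and 627 and 517 with RG3039, against 605 and 863 in DMSO, and SLC27A3 had 812 and 598 in the combination libraries, 458 and 462 with decitabine and 312 and 369 with RG3039, against 269 and 261 in DMSO. In both, libraries with decitabine lay above those of RG3039 alone. Against DMSO, SLC27A2 (1.12 ± 0.20, adjusted p = 0.004) and SLC27A3 (1.39 ± 0.22, adjusted p = 0.00195) rose with the combination, and both calls held without each library. SLC27A2 was also higher with the combination than with RG3039 (1.46 ± 0.20, adjusted p = 0.0103; ended at adjusted p of 0.0511 to 0.108 on leaving out any 1 library other than decitabine replicate 1, decitabine replicate 2, DMSO replicate 1 and DMSO replicate 2).

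Lysosomal and ion carriers gave further rises. SLC15A3, which encodes a peptide and histidine carrier of lysosomes in immune cells, had 177 and 182 in the combination libraries, 42.5 and 52.4 with decitabine and 132 and 151 with RG3039, against 32.7 and 54.5 in DMSO. The 4 libraries with RG3039 were the highest. It rose with the combination (2.06 ± 0.36, adjusted p = 0.00349), which held without each library, and with RG3039 (1.72 ± 0.36, adjusted p = 0.0209; lost at adjusted p of 0.0896, 0.126 and 0.0804 on dropping RG3039 1, RG3039 2 and DMSO 1). SLC20A1, the phosphate importer gene PiT1, had 3134 and 3357 in the combination libraries, 3386 and 2928 with decitabine and 2408 and 2490.2 with RG3039, against 1804 and 1644 in DMSO. All treated libraries lay above DMSO, and it rose with the combination (0.91 ± 0.14, adjusted p = 0.00195), which held without each library, and with decitabine (0.87 ± 0.14, adjusted p = 0.0178; lost at adjusted p of 0.117, 0.0677 and 0.0867 on dropping decitabine 1, decitabine 2 and DMSO 2). The sodium-proton exchanger gene SLC9A8 (0.99 ± 0.20, adjusted p = 0.00691) and the organic cation carrier gene SLC22A18 (2.41 ± 0.42, adjusted p = 0.0032) rose with the combination. Both calls held without each library.

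Among those that fell, SLC43A3 encodes a purine nucleobase carrier and had 2072 and 2395 in the combination libraries, 6383 and 3899 with decitabine and 7989 and 4597 with RG3039, against 6753 and 5789 in DMSO. The combination libraries were the lowest, and the single drugs overlapped DMSO. Its fall with the combination (-1.49 ± 0.28, adjusted p = 0.00497) held without each library. SLC22A16, a carnitine carrier gene, had 12.2 and 14.9 in the combination libraries, 109.8 and 54.3 with decitabine and 98 and 27.5 with RG3039, against 164 and 147 in DMSO and fell with the combination (-3.43 ± 0.61, adjusted p = 0.00346), and the acetyl-CoA carrier gene SLC33A1 fell as well (-1.01 ± 0.18, adjusted p = 0.00394). Both calls held without each library. SLC24A1, a sodium/calcium-potassium exchanger gene, had 115 and 117 in the combination libraries, 288 and 227 with decitabine and 114 and 62.5 with RG3039, against 346 and 241 in DMSO. The 4 libraries with RG3039 were the lowest, and it fell with RG3039 (-1.76 ± 0.35, adjusted p = 0.0151; lost at adjusted p of 0.0954 and 0.0751 on dropping RG3039 2 and DMSO 1) and with the combination (-1.31 ± 0.35, adjusted p = 0.0231; lost at adjusted p of 0.1, 0.0877 and 0.125 on dropping combination 1, combination 2 and DMSO 1). The reduced folate carrier gene SLC19A1 was called in no comparison (combination -0.01 ± 0.15, decitabine -0.28 ± 0.15, RG3039 0.32 ± 0.15 against DMSO).

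**Figure D5:**
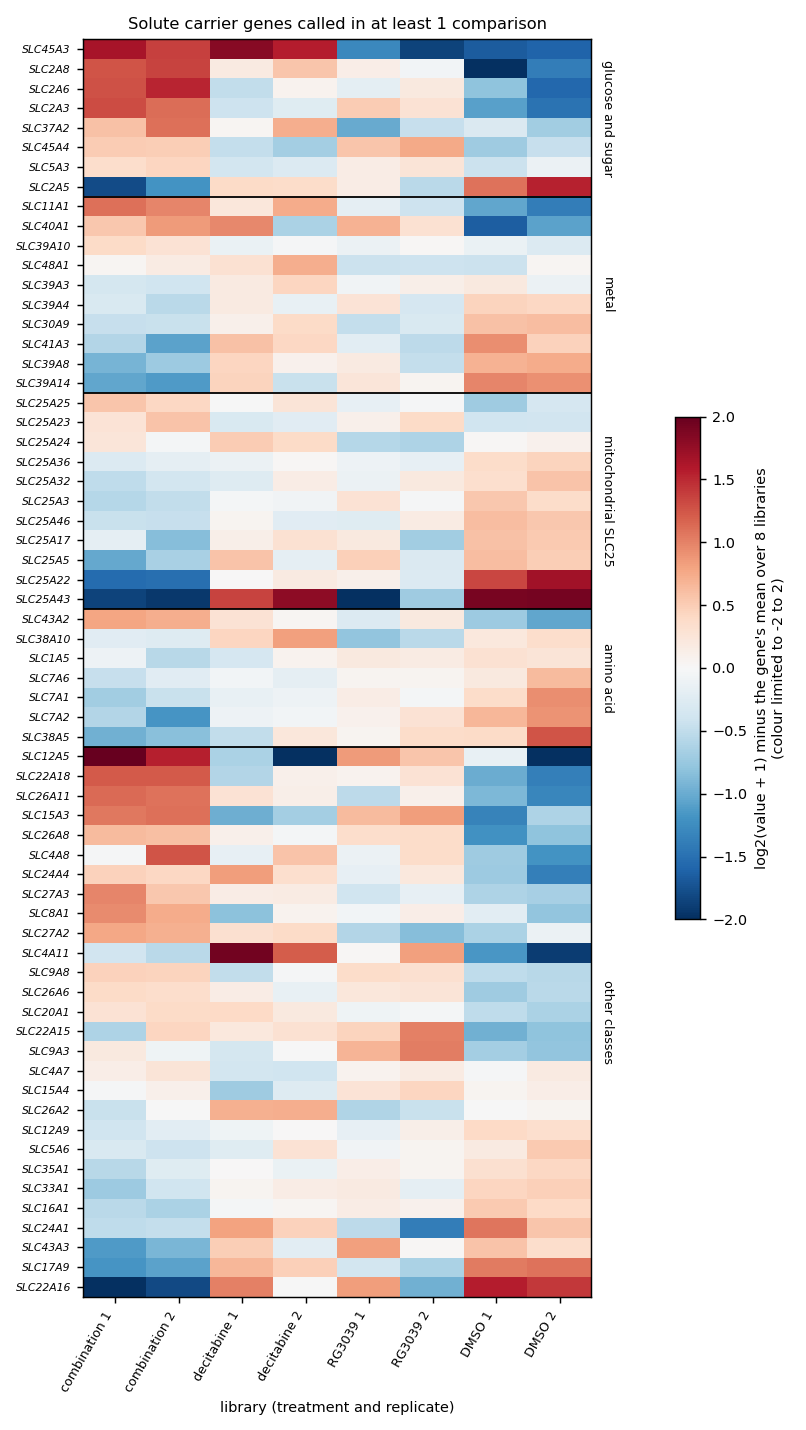
Log2(normalised value + 1) minus the gene's mean over the 8 libraries for 64 of the 66 members called in at least 1 comparison (rows, by subfamily), in each library (columns; colour scale limited to -2 to 2). SLC45A3 was high in the 4 libraries with decitabine, SLC25A43 low in the 4 with RG3039, and SLC17A9 lowest in the combination libraries.

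Adding RG3039 to decitabine was tested as the combination against decitabine. It gave 7 members higher and 13 lower, 10.3% of 194 against 7.33% of all genes tested (3.94% higher and 3.39% lower). The median was -0.16 over the members and -0.02 over all genes. Glucose and sugar members had 4 higher and 1 lower, metal members 0 and 4, SLC25 members 0 and 2, and amino acid members 0 and 1. SLC2A3 and SLC17A9, given above, were the 2 members whose call held without each library. SLC25A43 (-3.46 ± 0.65, adjusted p = 0.014; lost at adjusted p of 0.0728, 0.0752, 0.0689 and 0.083 on dropping combination 1, combination 2, decitabine 1 and decitabine 2) had the lowest log2 fold change among the members, and SLC41A3 (-1.34 ± 0.25, adjusted p = 0.0138; lost at adjusted p of 0.1, 0.088 and 0.0539 on dropping combination 2, decitabine 1 and decitabine 2) and SLC39A8 (-1.09 ± 0.24, adjusted p = 0.0252; lost at adjusted p of 0.157, 0.096, 0.154 and 0.0581 on dropping combination 1, combination 2, decitabine 1 and decitabine 2) were lower too. The count of 20 was 3, 4, 4 and 5 on dropping combination 1, combination 2, decitabine 1 and decitabine 2.

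Adding decitabine to RG3039 was tested as the combination against RG3039. Here 4 members were higher and 3 lower, 3.61% of 194 against 2.28% of all genes tested (1.49% higher and 0.787% lower). The split was 6 and 2 under TMM scaling and 5 and 2 under quantile scaling. The higher ones were SLC45A3, SLC2A8, SLC27A2 and SLC27A3, and the lower ones SLC43A3, SLC16A1 and SLC25A3. SLC45A3 led (3.08 ± 0.40, adjusted p = 0.00712; lost at adjusted p of 0.103 and 0.0742 on dropping combination 1 and combination 2), with values given above. None of the 7 calls held without each library, and the count was 0, 0, 4, 3, 1 and 2 on dropping combination 1, combination 2, decitabine 1, decitabine 2, RG3039 1 and RG3039 2.

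Decitabine alone against RG3039 alone gave 9 members higher and 3 lower, 6.19% of 194 against 4.6% of all genes tested (2.67% higher and 1.92% lower). SLC45A3 and SLC38A10, given above, and the sulphate carrier gene SLC26A2 (1.25 ± 0.17, adjusted p = 0.00419) were higher with decitabine and held their calls without each library. SLC26A2 had 1339 and 1798 in the combination libraries, 2983 and 3009 with decitabine and 1194 and 1329 with RG3039, against 1805 and 1888 in DMSO, so its decitabine libraries stood above all others. SLC25A43 was higher with decitabine as well (3.16 ± 0.65, adjusted p = 0.0253; lost at adjusted p of 0.102, 0.147 and 0.114 on dropping decitabine 1, decitabine 2 and RG3039 1), and SLC45A4 was lower (-1.24 ± 0.18, adjusted p = 0.00566; lost at adjusted p of 0.0504 and 0.0568 on dropping decitabine 2 and RG3039 2). The count of 12 was 4, 6, 7 and 5 on dropping decitabine 1, decitabine 2, RG3039 1 and RG3039 2.

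The interaction asks whether the change with RG3039 differs with and without decitabine. No member was called in it by limma, nor was any of the 17534 genes (0%), and 15 of 194 members had an unadjusted p under 0.05, as did 1014 of all genes. Its standard error was larger (median 0.456, against 0.322 for a comparison of 2 groups). The member median was -0.10. The lowest value among the members was that of SLC4A11, a borate and proton carrier family gene named after its values were seen, with 13.6 and 12.1 in the combination libraries, 72 and 43.4 with decitabine and 18.3 and 32.5 with RG3039, against 7.55 and 4.11 in DMSO and an interaction of -3.98 ± 0.93, adjusted p = 0.709. It was highest in the decitabine libraries and rose with decitabine alone (3.11 ± 0.66, adjusted p = 0.0471; ended at adjusted p of 0.0559 to 0.225 on leaving out any 1 library). SLC2A3 (-0.14 ± 0.26) and SLC25A22 (-0.02 ± 0.48) had values near 0.

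Low members varied between libraries of a group. Of the 194, 42 had a mean of 1000 or more, 100 a mean of 100 to 1000 and 52 a mean under 100. SLC26A1, the member nearest the limit, had 127 and 0.528 in the combination libraries, 1.81 and 0 with decitabine and 0 and 30.7 with RG3039, against 0 and 0 in DMSO, so that most of its mean came from 1 library, and it is listed at 0 in both DMSO libraries. SLC46A3, a lysosomal carrier gene, had 13.3 and 7.73 in the combination libraries, 36.4 and 70.6 with decitabine and 17.5 and 0 with RG3039, against 15.1 and 9.08 in DMSO and was called in no comparison.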

How the data were processed

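RNA of 8 HL-60 libraries was measured by QuantSeq 3′ sequencing (FWD kit), whose reads start close to the 3′ end, so that a level does not scale with transcript length. The authors deposited 1 normalised signal value for each gene and library. Salmon 1.2.1, featureCounts, STAR, limma and DESeq2 are named with build hg38, per the submitters' processing notes, which give no roles. Divided by the value of 1 read, 97.5% to 98.1% of low values came out whole (tolerance 0.02) for genes with 1 transcript, and 74.4% to 80.8% for all genes. No count test was therefore run, and the total divided by the value of 1 read gave the estimated depth.

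Values were taken as log2(value + 1) for the 17534 genes with a mean of at least 10. limma 3.58.1 in R 4.3.3 fitted a mean per group with a mean-variance trend (4 residual and 5.51 prior degrees of freedom). Tests were two-sided and the Benjamini-Hochberg adjustment ran separately for 7 comparisons. The script was tested on simulated data. TMM scaling was computed with its published formula. Coordinates are from GENCODE 29 on hg38. Promoter windows are the first listed per gene. Python 3.11.15, pandas 2.3.3, numpy 2.4.6 and matplotlib 3.10.9 were used.

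The members, subfamilies and lists were chosen with earlier results of these data known. Named genes are the 6 members with the smallest p of limma's F test over the treatments against DMSO in each of the 4 subfamilies and the 14 in the other classes, with 16 fixed members, those nearest the limit, 3 genes of each further list by the same test, and TXNIP, TFRC, BSG and UCP2. No source used here gives the strand setting, so reads of SLC16A1, SLC25A5 and SLC2A1 cannot be told apart from those of their antisense genes where these overlap, at the 5′ ends, and reads shared between paralogs (SLC2A3 and SLC2A14, SLC25A5 and SLC25A6) leave those levels uncertain. Some genes of these lists are counted but not reported here by name.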

Additional observations from a re-analysis of the deposited data

How the results depend on the processing

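The counts of members called were recomputed under scaling, pseudocount, filter, variance and sample alternatives. The count for the combination against DMSO was within 1.5 times of 56 in each alternative run other than leaving out combination replicate 1. Without the mean-variance trend the counts were 10 for RG3039 against DMSO, 4 for decitabine against DMSO, 5 for the combination against decitabine, 1 for the combination against RG3039 and 4 for decitabine against RG3039. With only the groups compared they were 6 for RG3039 against DMSO, 2 for decitabine against DMSO and 6 for decitabine against RG3039. With no filter on low values they were 4 for decitabine against DMSO, 2 for the combination against RG3039 and 7 for decitabine against RG3039. With a fold change of at least 2 the combination against decitabine gave 13. Leaving out 1 library gave 36 to 58 for the combination, 1 to 9 for decitabine and 7 to 20 for RG3039 against DMSO, 3 to 22 for the combination against decitabine, 0 to 7 for the combination against RG3039, 4 to 14 for decitabine against RG3039 and 0 to 0 for the interaction. Of 660 recomputed subfamily counts, 169 moved by over 1.5 times. A group left with 1 library is assumed to vary like the others. The cause of these differences was not tested.

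With a replicate block the counts were 64, 9 and 22 for the combination, decitabine and RG3039 against DMSO, 29, 10 and 18 for the other 3 pairs, and 0 for the interaction. The labels do not say that replicate numbers mark a shared culture, and same-numbered deviations correlated between -0.0767 and 0.161 across genes, so the numbers were not taken as paired. Of 126 calls of named genes, 50 held in each alternative run, 0 changed direction, and 420 of 2264 recomputed values missed the threshold. Depth limits the low members: 1 read was worth 0.702 to 1.51 of the deposited units, and 2 libraries a group give the spread.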
